A study of Mus musculus with 4 samples.

Results

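Chromatin loops at 8 genes of blood vessel signalling were followed through Hi-C loop lists of the mouse uterus. The genes were Vegfa, Adm, Ramp2, Ramp3, Calcrl, Hif1a, Kdr and Flt1. Hi-C ligates and sequences pairs of DNA fragments that are neighbours in the folded genome, and a loop is a pair of positions, called anchors, that the authors' loop caller marked as in frequent contact. A loop was assigned to a gene when either anchor overlapped the RefSeq gene body on mm10 with 10 kb added to each side. This rule found 74 loops out of 59353 over the 4 lists: 21 of 16387 in wild-type vehicle replicate 2, 12 of 9385 in wild-type vehicle replicate 3, 17 of 11752 in wild-type progesterone replicate 2 and 24 of 21829 in the estrogen receptor alpha (ERα) knockout vehicle library, replicate 1. All 8 genes had a loop in at least 2 lists.

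The mice were C57BL/6J females more than 10 weeks of age, and all groups had been ovariectomised and then left for 10 to 14 days. Wild-type controls received 100 ul of saline into the abdominal cavity, the hormone group 1 mg of progesterone under the skin in 100 ul of sesame oil, and the knockout, labelled Ex3aERKO, saline; the whole uterus was frozen after 1 h. The comparisons ask whether contacts differ shortly after progesterone, or in tissue without ERα. Carrier and route differ together with the hormone, so these cannot be told apart, and estradiol samples were not analysed here. No label says whether a library came from 1 mouse or a pool. The lists hold positions only: depth and loop strength are unknown, a contact missing from a list may still exist in the tissue, and the cell types of the tissue cannot be checked through marker expression. Progesterone and the knockout have 1 library each, so no test between conditions was possible.

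Vegfa encodes the vascular endothelial growth factor A, which acts on endothelial cells through the receptor tyrosine kinases encoded by Kdr (VEGFR-2, the main signalling receptor) and Flt1 (VEGFR-1, which also acts as a decoy). Adm encodes adrenomedullin, a peptide that dilates vessels and keeps them tight; its receptor is the Calcrl product together with one of the accessory proteins encoded by Ramp2 and Ramp3. Hif1a encodes the oxygen-regulated subunit of a transcription factor that induces Vegfa, Adm and Flt1 in low oxygen. In the uterus, Vegfa and Adm are known as genes that respond early to estrogen, and vessel leakiness and swelling of the tissue are among the first responses to that hormone.

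All loops of Vegfa, Ramp3 and Calcrl, and 8 of 11 at Adm, had the gene start in an anchor, so the sequence just outside the gene body on that side is shown. Each stretch runs 5′ to 3′ on the gene's strand, from RefSeq on GRCm38.p6 (the assembly behind mm10), and ends at the outer edge of the RefSeq gene body. At Ramp3 and Calcrl the start used for the anchors (6658533 and 84425266) lies inside that edge, and the bases between are not shown. Capitals mark the hypoxia response cores ACGTG and GCGTG and the GC box GGGCGG, on either strand.
Vegfa (chr17:46032378-46032627, minus strand): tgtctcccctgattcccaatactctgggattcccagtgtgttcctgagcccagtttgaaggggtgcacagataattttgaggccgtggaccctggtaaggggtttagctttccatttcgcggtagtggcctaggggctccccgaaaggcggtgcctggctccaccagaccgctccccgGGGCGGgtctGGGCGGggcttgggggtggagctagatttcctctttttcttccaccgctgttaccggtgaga
Adm (chr7:110627407-110627656, plus strand): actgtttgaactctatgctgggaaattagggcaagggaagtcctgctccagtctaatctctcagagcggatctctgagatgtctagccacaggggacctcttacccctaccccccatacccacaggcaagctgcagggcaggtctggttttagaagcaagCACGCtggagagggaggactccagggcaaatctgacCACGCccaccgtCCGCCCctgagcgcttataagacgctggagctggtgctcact
Ramp3 (chr11:6658283-6658505, plus strand): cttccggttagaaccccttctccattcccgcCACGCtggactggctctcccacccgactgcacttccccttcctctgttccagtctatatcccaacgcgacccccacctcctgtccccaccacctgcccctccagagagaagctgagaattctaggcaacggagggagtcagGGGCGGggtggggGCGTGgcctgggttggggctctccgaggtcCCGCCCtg
Calcrl (chr2:84425406-84425516, minus strand): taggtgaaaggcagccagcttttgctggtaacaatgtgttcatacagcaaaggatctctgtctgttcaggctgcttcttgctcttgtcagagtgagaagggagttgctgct
The Adm and Ramp3 stretches hold 2 hypoxia cores each, all of the form GCGTG, and the Vegfa and Calcrl stretches hold 0. The Vegfa stretch holds 2 GC boxes, the Ramp3 stretch 2, the Adm stretch 1 and the Calcrl stretch 0. The stretches measure 250 bases at Vegfa and Adm, 223 at Ramp3 and 111 at Calcrl, so these counts are not compared between genes. Over the RefSeq windows of 250 bases before to 50 after a start, 38.8% of 21045 windows of protein-coding genes hold GCGTG, 21.1% hold ACGTG and 46.7% hold GGGCGG. The members' own windows of that size gave 2 GCGTG matches each at Adm, Ramp3 and Kdr, 1 each at Calcrl, Flt1 and the second Vegfa start at 46025163, and 0 at the outer Vegfa start and Hif1a. ACGTG had 3 matches at Hif1a, 1 at the second Vegfa start and 0 in the other windows. GGGCGG had 3 matches each at Ramp3 and Flt1, and 2 each at the outer Vegfa start and Kdr. It had 1 each at Adm, Calcrl and the second Vegfa start, and 0 at Hif1a. Among the members' windows the nuclear receptor motif AGGTCA was found at Hif1a alone, with 1 match, against 14.6% of all windows, and the full palindromic estrogen response element in none, against 0.0523% of all windows. A match of letters is a description and not a bound site.

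The 8 genes took about the same share of each list. They had 12.8 loops per 10000 in vehicle replicate 2 (exact binomial 95% interval 7.93 to 19.6), 12.8 in vehicle replicate 3 (6.61 to 22.3), 14.5 with progesterone (8.43 to 23.2) and 11.0 in the knockout (7.05 to 16.4). The intervals overlap throughout, and they cover counting error only. In raw counts vehicle replicate 2 had 1.75 times the loops of vehicle replicate 3 at these genes. The raw count of the knockout was 1.45 times the vehicle mean of 16.5, but per 10000 loops it was 0.859 times the vehicle mean. The members with a loop were 8 of 8 in vehicle replicate 2, 7 of 8 in replicate 3, 7 of 8 with progesterone and 8 of 8 without ERα. Under the same rule 57.5%, 45.3%, 50.0% and 65.1% of 21631 protein-coding genes had a loop in these libraries. Loops in all 4 lists were found for 7 members, against 38.8% of all genes. The median number of loops per member was 2.5, 1.5, 2 and 2.5, against 1, 0, 1 and 1 per gene over all genes.

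**Figure D1:**
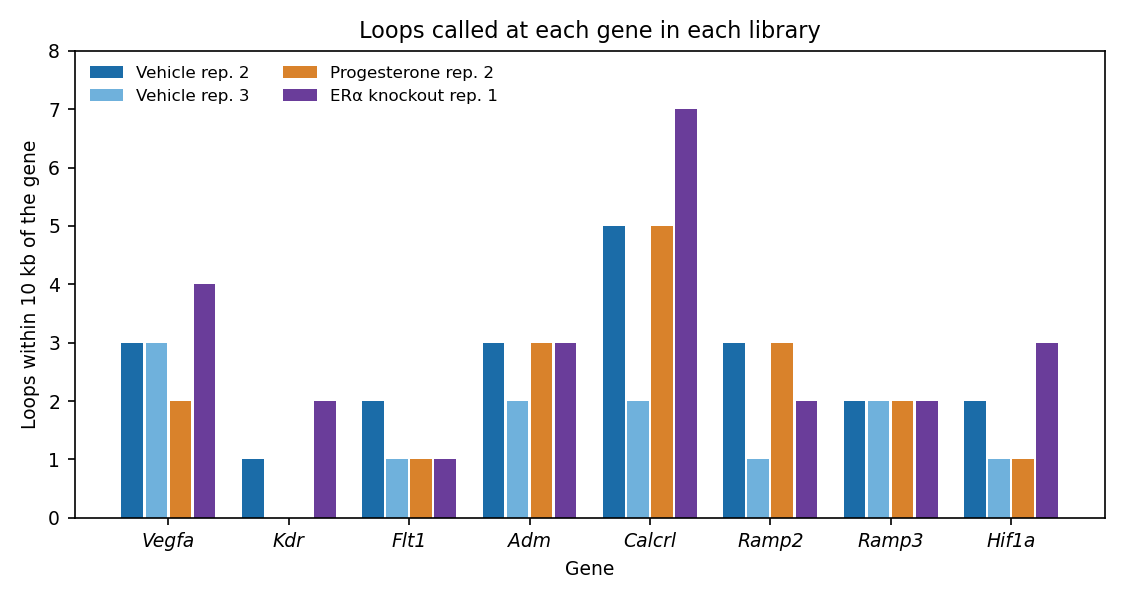
Number of loops with an anchor within 10 kb of each of the 8 genes (horizontal axis), 1 bar per library. Calcrl had the highest bar in every library but vehicle replicate 3, up to 7 in the knockout, Ramp3 had 2 in each library, and Kdr had none in vehicle replicate 3 or after progesterone.

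Ordered by loops summed over the lists, Calcrl came first with 19, followed by Vegfa with 12, Adm with 11, Ramp2 with 9, Ramp3 with 8, Hif1a with 7, Flt1 with 5 and Kdr with 3. Counts of 1 gene differed by up to 3 between the vehicle replicates (Calcrl, with 5 and 2), and by up to 2 at the other genes. Calcrl stood above Vegfa in the sum but below it in vehicle replicate 3, with 2 loops against 3. From Vegfa down, neighbours differ by 1 or 2 loops summed over 4 lists, and no order is read from these. The genes also differ in length, from 1.92 kb for Ramp2 and 2.16 kb for Adm to 94.8 kb for Calcrl and 165 kb for Flt1, and the longest had among the fewest loops.

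Vegfa (chromosome 17, 46016993 to 46032377, minus strand) was tied to sites on both sides of the gene from 1 position, its start. It had 3 loops in each vehicle replicate, 2 with progesterone and 4 without ERα. In all 12 the gene-side anchor began at 46030001 and contained the outer gene start at 46032377. A long loop over the gene and beyond its 3′ end, to 45730001 or 45735001, spanned 300 kb in vehicle replicate 2 and 295 kb in the other libraries, and it was the Vegfa loop called in all 4 lists. Its far anchor held the start of the gene 1600014C23Rik in vehicle replicate 2 and no protein-coding gene in the others, and no whole protein-coding gene lay between the anchors.

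On the upstream side the libraries were less alike. A 50 kb loop to 46080001, where no protein-coding gene lies, was called in both vehicle libraries and in the knockout and not after progesterone. A 100 kb loop to 46130001, in Rsph9, a gene of the ciliary radial spoke, was called in the 3 wild-type libraries. The knockout list held in its place an 80 kb loop to 46110001, at Mrps18a, a mitochondrial ribosomal protein gene; these far anchors lie 15 kb apart, and with 25 kb of tolerance instead of 10 kb they count as the same loop. The knockout also had a 220 kb loop to 45810001, on the downstream side, that was in no wild-type list. In share of all genes with at least as many loops, Vegfa stood at 20.2%, 8.84%, 26.2% and 18.6% in vehicle replicates 2 and 3, progesterone and the knockout.

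Adm (chromosome 7, 110627657 to 110629820, plus strand) had 3, 2, 3 and 3 loops in the same order of libraries, and all 11 led upstream. The 80 kb loop from the gene at 110625001 to 110545001, inside the neighbouring gene Sbf2 (a membrane trafficking regulator), had the same anchors in all 4 lists. A loop of 340 or 345 kb to 110285001, in DNA with no protein-coding gene, was also called in all 4. Its Adm-side anchor was 110625001 to 110630000, which holds the gene, in vehicle replicate 2 and the knockout. In vehicle replicate 3 and after progesterone that anchor was the next bin, 110630001 to 110635000, which begins 2344 bases from the gene start and past the gene end, so the shift ran across the vehicle replicates. Another site at 110430001, again in Sbf2, had a loop of 195 kb in the knockout to the bin that holds Adm. In vehicle replicate 2 this loop measured 200 kb, and its Adm-side anchor, 110630001 to 110640000, lay past the gene end. The loop was not listed in the other libraries. A 475 kb loop to 110150001, with 25 kb anchors, was called after progesterone and in no other list.

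Hif1a (chromosome 12, 73901324 to 73947554, plus strand) likewise had loops on its upstream side alone, 7 in all: 2, 1, 1 and 3 by library. A loop of 200 or 205 kb to about 73705001 inside Prkch, a protein kinase C gene, was in all 4 lists. It was called at 5 kb in vehicle replicate 2 and the knockout and at 25 kb in vehicle replicate 3 and after progesterone. A shorter contact of 110 or 120 kb, to 73790001, was called in vehicle replicate 2 and the knockout. In the knockout alone a 1150 kb loop with 25 kb anchors led to 72750001 at Ppm1a, a phosphatase gene; it is the longest of the 74 loops. Each list also held 4 loops of at most 2 Mb that enclosed the Hif1a window without touching it.

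**Figure D2:**
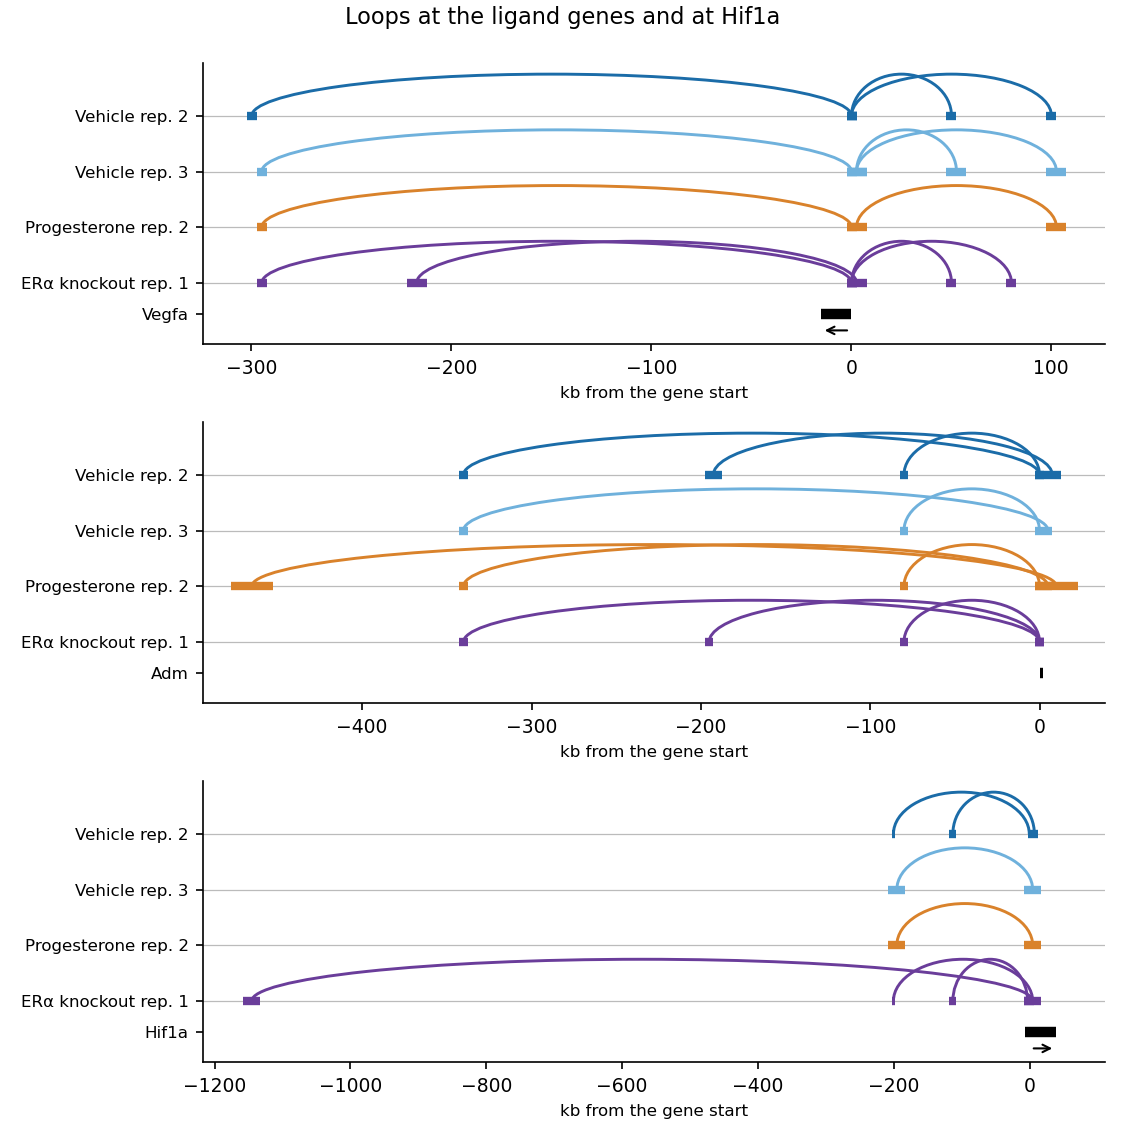
Arcs join the anchors (thick bars, to scale) of each loop at Vegfa, Adm and Hif1a, with 1 row per library. Positions are in kb from the gene start along the chromosome. The black bar is the gene, and arc heights carry no value. Arrows show the direction of transcription at Vegfa and Hif1a, and none is drawn at Adm, which is too short on this scale. At Vegfa the arcs run both ways from the start, and the 50 kb arc is missing from the progesterone row; at Adm and Hif1a they all run to one side.

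Summed over the 4 lists, the receptor genes for VEGF had the fewest loops, Flt1 with 5 and Kdr with 3. Flt1 and Hif1a had equal counts in each wild-type library, so no order is read from these sums. Kdr (chromosome 5, 75932827 to 75979072, minus strand) had 1 loop in vehicle replicate 2, 0 in vehicle replicate 3, 0 with progesterone and 2 without ERα. A loop of 105 kb in vehicle replicate 2 and 100 kb in the knockout joined the gene start with a site past the 3′ end at 75870001. The other knockout loop, of 60 kb, left from 75935001 near the 3′ end of the gene and reached nearly the same outer site, 75875001. In vehicle replicate 3 and after progesterone the nearest anchor of any loop lay 103 kb and 41.5 kb from the Kdr start. Loops of at most 2 Mb that enclosed Kdr without touching it numbered 4, 3, 3 and 4. Across all protein-coding genes, those with a loop made up 45.3% and 50.0% in these libraries, so a gene without one was common. Kdr is an endothelial gene in whole tissue, where a loop in few cells and a faint loop in many cannot be told apart.

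Flt1 (chromosome 5, 147561604 to 147726438, minus strand) showed a different geometry. Its 265 kb loop, with 5 kb anchors at 147580001 and 147845001, was placed in exactly the same bins in all 4 libraries. Its inner anchor lies inside the gene towards the 3′ end and its outer anchor lies upstream of the gene, so the loop encloses the gene start without touching it. A 120 kb loop from the start to nearly the same outer site, 147840001, was called in vehicle replicate 2 alone. Flt1 thus had 2, 1, 1 and 1 loops, and its start lay in the anchor of 1 of its 5 loops.

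For adrenomedullin the receptor gene Calcrl (chromosome 2, 84330626 to 84425405, minus strand) had the most loops of the 8 genes in every library but vehicle replicate 3, where Vegfa had more, with 5 and 2 loops in vehicle replicates 2 and 3, 5 with progesterone and 7 without ERα. In those libraries 5.67%, 21.4%, 2.64% and 3.80% of all genes had at least as many. All 19 loops had the gene start in the anchor, and all led over the gene body or past the 3′ end. They formed 7 distinct contacts, counted by joining loops of different lists whose anchors lay within 10 kb. The contact of 610 to 625 kb was in all 4 lists, with Fam171b at its far anchor. In the 3 wild-type lists that anchor measured 25 kb and also overlapped the integrin gene Itgav. In the knockout it measured 10 kb and lay inside the same 25 kb bin, so the difference at Itgav goes with anchor size. Contacts of 160 or 170 kb, 240 kb and 360 kb were called in every library but vehicle replicate 3. The contact of 130 or 135 kb was called in every library but vehicle replicate 2. An 800 kb contact with Zc3h15 was in vehicle replicate 2 and the knockout, and a 40 kb loop inside Calcrl, from the start to 84385001, in the knockout. The Calcrl window also overlaps Tfpi, which encodes an inhibitor of coagulation, and no start other than that of Calcrl lay in the gene-side anchors.

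The accessory protein genes differed from each other. Ramp3 (chromosome 11, 6658506 to 6677478, plus strand) had the same 2 loops in every library, both from its start and over the gene. The shorter one, of 110 kb, joined 6650001 to 6660000 with 6760001 to 6770000, where no protein-coding gene lies, in identical bins of 10 kb. The longer one, of 510 kb in vehicle replicate 2 and 500 kb elsewhere, reached Adcy1, an adenylyl cyclase gene; Ramp3 was the member whose loops were all shared by the 4 lists. No protein-coding gene lay wholly within either loop.

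Ramp2 (chromosome 11, 101246334 to 101248250) lies among close neighbours, with 13 genes within 100 kb, and had 3, 1, 3 and 2 loops. Its 35 kb loop from 101245001 to 101210001 inside Ezh1, which encodes a Polycomb histone methyltransferase, was in all 4 lists. A 50 kb loop to 101190001, at Cntnap1 and Ezh1, was called in vehicle replicate 2 and after progesterone. Another of 50 kb, in those lists and the knockout, left from 101250001 to 101255000, beside Ramp2 and over the start of Vps25, and reached the autophagy gene Becn1. These last 3 loops are within the 10 kb added to Ramp2 and do not touch its body. All 9 loops of Ramp2 have an anchor within 10 kb of Vps25, so under the same rule they are equally loops of Vps25.

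**Figure D3:**
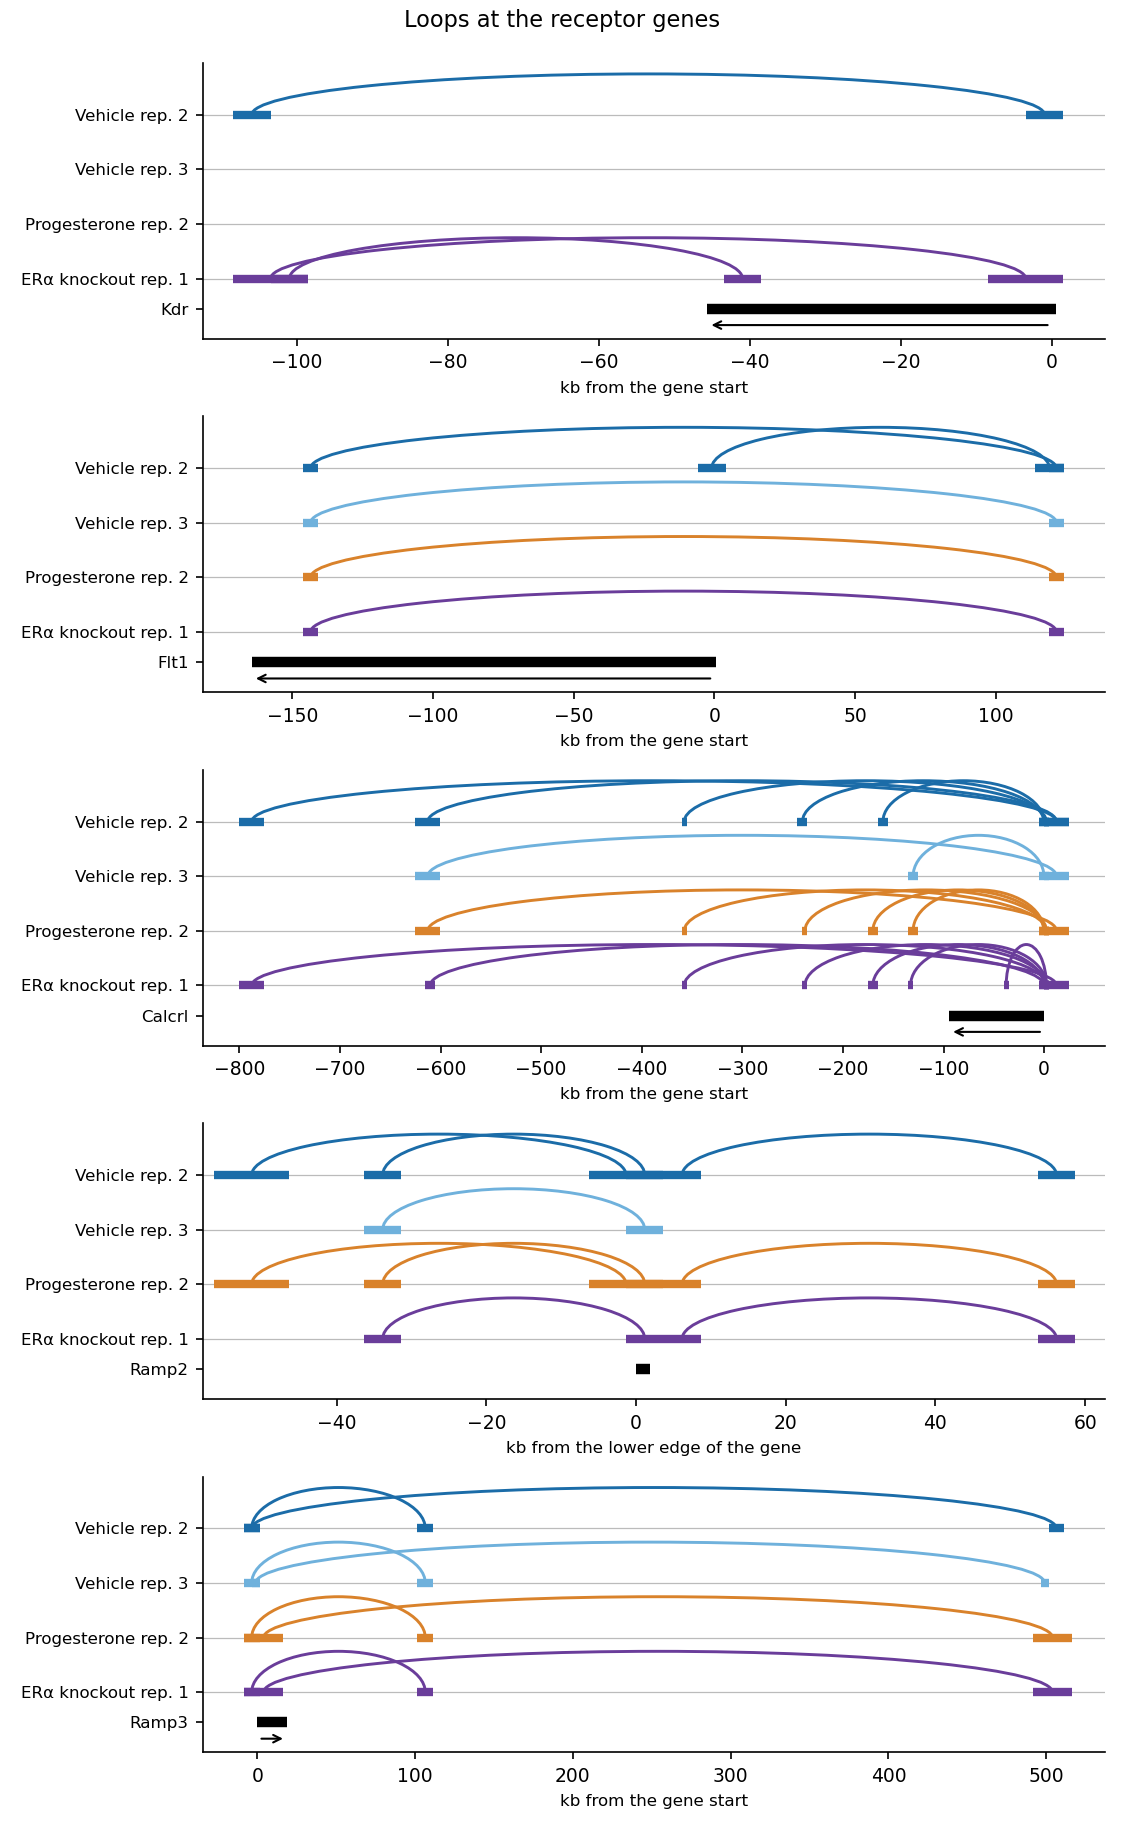
Arcs join the anchors (thick bars, to scale) of each loop at the 5 receptor genes, in kb along the chromosome from the gene start, or from the lower edge of Ramp2; black bars are genes, arrows show transcription where the start is known, rows are libraries, and arc heights carry no value. The Ramp3 and 265 kb Flt1 arcs recur in all 4 rows, and the Kdr rows of vehicle replicate 3 and progesterone are empty.

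Across the members, the gene start was the usual place of the anchor. Of the 65 loops at the 7 genes with a known start, 55 (84.6%) had it in the gene-side anchor: 15 of 18 in vehicle replicate 2, 9 of 11 in vehicle replicate 3, 12 of 14 with progesterone and 19 of 22 without ERα. Over all protein-coding genes with a known start, the same rule gave 33.1%, 28.5%, 31.2% and 40.7% of the pairs of a gene and a loop. There a loop counted once for each gene window it touched. The shares of the members were thus 83.3%, 81.8%, 85.7% and 86.4%, alike in the 4 libraries. Calcrl supplied 19 of the 55, all genes were not matched for length or for neighbours, and loops of 1 gene share an anchor, so no test was made. By gene the share ran from 100% at Vegfa, Ramp3 and Calcrl through 72.7% at Adm, 71.4% at Hif1a and 66.7% at Kdr to 20% at Flt1.

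The far anchors often lay in DNA without protein-coding genes. This held for 10 of 21, 6 of 12, 9 of 17 and 13 of 24 loops by library, or 47.6%, 50%, 52.9% and 54.2%. Over all genes the shares were 32.2%, 33.3%, 32.5% and 26.8% of pairs of a gene and a loop. There a loop counted once for each gene window it touched, with 29944 pairs from 16387 loops in vehicle replicate 2. Regions with many genes thus weigh more in the shares over all genes, and the difference is not read as a trait of the members. All 5 Flt1 and all 3 Kdr loops were of this kind, as were 12 of 19 at Calcrl and 7 of 12 at Vegfa, while none of the 9 at Ramp2 were. A gene start lay in the far anchor of 5 of the 74 loops. The same share was not counted over all genes, so nothing is read from this number. The loops had a median length of 182.5 kb and ranged from 35 to 1150 kb.

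**Figure D4:**
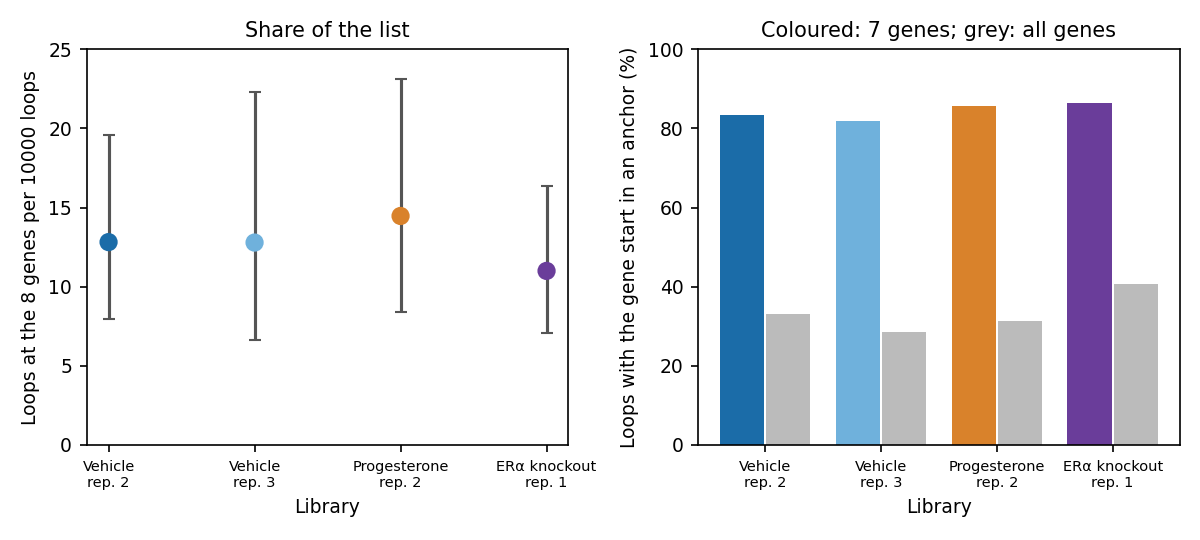
Left, loops at the 8 genes per 10000 loops of each list with exact binomial 95% intervals; right, percent of loops with the gene start in an anchor for the 7 members with a known start (coloured) and all protein-coding genes (grey). The intervals overlap in the left panel, and in the right panel the coloured bars lie between 81.8% and 86.4% and the grey ones between 28.5% and 40.7%. For the grey bars a loop counts once for each gene window it touches.

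The 74 loops formed 28 distinct contacts. Of these, 9 were called in all 4 lists, 7 in 3, 5 in 2 and 7 in 1; when anchors had to overlap as deposited, with 0 kb added, 5 were called in all 4. The contacts in all 4 lists were 2 each at Adm and Ramp3 and 1 each at Vegfa, Ramp2, Calcrl, Hif1a and Flt1. As a share of the member loops of each list, they made up 42.9% in vehicle replicate 2, 75% in vehicle replicate 3, 52.9% with progesterone and 37.5% without ERα. Over all loops the shares were 39.0%, 69.4%, 55.0% and 29.1%, near those of the members. Of the contacts in 1 list, 5 were from the knockout, 1 from vehicle replicate 2, 1 from progesterone and 0 from vehicle replicate 3. The knockout list is the longest, and the share of all loops found in 1 list was not counted. No difference between libraries is therefore read from these counts.

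Set against both vehicle libraries, progesterone differed at 2 of these contacts. Of 11 member loops called in both vehicle lists, 1 was not called after progesterone (9.09%, against 15.1% of all such loops), the 50 kb loop upstream of Vegfa. Of 17 progesterone loops, 1 was in neither vehicle list (5.88%, against 14.8%), the 475 kb loop of Adm; with 0 kb added to the anchors the count was 2, with the 170 kb loop of Calcrl. The same counts were made with each vehicle library in the place of the progesterone library. Vehicle replicate 2 lacked 1 of 11 member loops common to vehicle replicate 3 and progesterone (5.99% of all such loops), and vehicle replicate 3 lacked 5 of 15 common to vehicle replicate 2 and progesterone (28.2%). In the other direction, 5 of 21 member loops of vehicle replicate 2 were in neither vehicle replicate 3 nor progesterone (34.4% of all its loops), and 0 of 12 of vehicle replicate 3 were in neither vehicle replicate 2 nor progesterone (9.60%). Both progesterone counts lie within these values, and the count of loops not called equals the lower one. The base of these counts holds the progesterone list itself, and the vehicle lists differ in length. They therefore give no spread between vehicle libraries alone, and no conclusion is drawn from them. Without vehicle replicate 3, 6 member loops of vehicle replicate 2 were not called after progesterone, and without vehicle replicate 2, 6 progesterone loops were not in vehicle replicate 3. The matching shares of all loops were not counted, so nothing about the members is read from these last counts.

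Set against the same libraries, the knockout differed at Vegfa, Calcrl, Hif1a and Kdr. Of the 11 loops in both vehicle lists, 1 was not called in the knockout (9.09%, against 10.0%), the 100 kb loop of Vegfa. With 25 kb of tolerance 0 were missing, and with 0 kb of tolerance 2 were, the other being the 200 kb loop of Hif1a. Of 24 knockout loops, 5 were in neither vehicle list (20.8%, against 40.6%): those of 80 and 220 kb at Vegfa, 40 kb at Calcrl, 1150 kb at Hif1a and 60 kb at Kdr. With 0 kb of tolerance the count was 8, with the loops of 195 kb at Adm, 170 kb at Calcrl and 110 kb at Hif1a. Of the vehicle libraries, replicate 2 lacked 1 of 11 loops common to vehicle replicate 3 and the knockout (7.95% of all such loops) and replicate 3 lacked 8 of 18 common to vehicle replicate 2 and the knockout (40.4%). Of the member loops of vehicle replicate 2, 2 of 21 were in neither vehicle replicate 3 nor the knockout (20.8% of all its loops), and of those of vehicle replicate 3, 0 of 12 were in neither vehicle replicate 2 nor the knockout (7.54%). The knockout list is the longest of the 4, and without vehicle replicate 2 the count of 5 was 13. The share of all knockout loops not in vehicle replicate 3 was not counted, so nothing is read from that 13. Ramp2, Ramp3, Adm and Flt1 had no knockout loop that was absent from both vehicle lists with 10 kb of tolerance, and Adm had 1 with 0 kb.

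**Figure D5:**
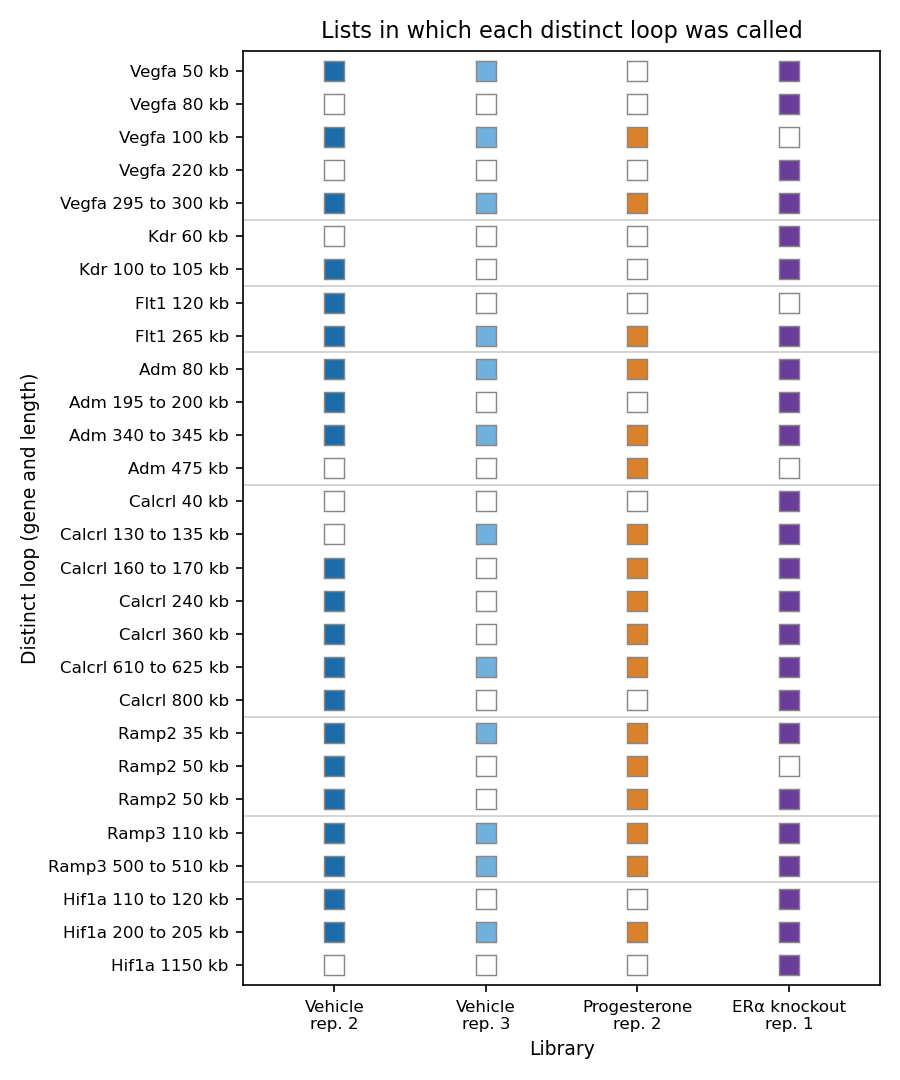
The 28 distinct contacts by gene and length (rows) and the 4 libraries (columns); a filled square means that the loop was called in that list and an open square that it was not. The knockout column, from the longest list, has 5 contacts of its own, and vehicle replicate 3, the shortest, lacks most of the Calcrl contacts that vehicle replicate 2 has.

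Other genes of these pathways, 52 in all, had loops in 38, 31, 34 and 47 cases (73.1%, 59.6%, 65.4% and 90.4%) in vehicle replicates 2 and 3, progesterone and the knockout, against 57.5%, 45.3%, 50.0% and 65.1% of all protein-coding genes. The median per gene was 1, 1, 1 and 2 loops. All 7 further genes of the VEGF family had a loop in every library but vehicle replicate 3, where 6 did. Summed over the 4 lists, the neuropilin coreceptor genes had the most loops of the 52, although Arnt2 had more in vehicle replicate 3: Nrp2 had 11, 3, 9 and 11, and Nrp1 had 8, 5, 7 and 12. Among ligands, Vegfc, a lymphatic growth factor gene, had 4, 1, 2 and 4, Vegfd had 3, 2, 2 and 3, Vegfb had 2, 0, 1 and 3, and Pgf, the placental growth factor gene, had 2, 1, 1 and 2. The lymphatic receptor gene Flt4 had 1 in each library.

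In the adrenomedullin and calcitonin family, 3, 3, 3 and 5 of 6 genes had loops (50%, 50%, 50% and 83.3%). The shares of all genes were 57.5%, 45.3%, 50.0% and 65.1%. Ackr3, which encodes a scavenging receptor, had 6, 3, 2 and 6 and the other accessory protein gene, Ramp1, 2, 3, 2 and 2. Calcb had 1 in each library, Calca had 2 and Adm2 had 1 in the knockout alone, and Calcr had none. Of 9 HIF pathway genes, 8, 8, 7 and 9 had loops (88.9%, 88.9%, 77.8% and 100%, against the same shares of all genes). Arnt2, a HIF partner gene, had 6, 7, 5 and 9, Epas1, which encodes HIF-2 alpha, 4, 3, 2 and 5, and Egln1, which encodes an oxygen-sensing prolyl hydroxylase, 3, 2, 1 and 4. Hif3a had 2, 2, 2 and 4, Arnt 2, 2, 2 and 1, Hif1an 1, 1, 2 and 4, Vhl 1, 1, 1 and 2, Egln2 1, 1, 0 and 1, and Egln3 0, 0, 0 and 1.

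Hypoxia target genes with a loop numbered 6, 4, 6 and 9 of 10 (60%, 40%, 60% and 90%), near the 57.5%, 45.3% and 50.0% of all genes in the wild-type libraries and above the 65.1% in the knockout, with Ndrg1 at 3 in each library. Genes of angiopoietin, Tie, TGF and Notch signalling numbered 10, 6, 8 and 11 of 12 (83.3%, 50%, 66.7% and 91.7%), above the share of all genes in each library. The Notch ligand gene Jag1 had 6, 3, 4 and 7 loops, the arterial ephrin gene Efnb2 5, 2, 3 and 6, and Notch1 3, 3, 3 and 5. Genes of vascular tone numbered 4, 4, 3 and 6 of 8 (50%, 50%, 37.5% and 75%). These shares were below that of all genes in vehicle replicate 2 and after progesterone, and above it in vehicle replicate 3 and the knockout. The endothelin receptor gene Ednra had 4, 2, 0 and 6 loops. Of 29 list genes with a loop in both vehicle lists, 8 had one that was not called after progesterone, against 24.4% of all such genes, and 6 one not called in the knockout, against 16.4%. Of the genes with a loop in those libraries, 9 of 34 had a progesterone loop in neither vehicle list, against 25.5%, and 39 of 47 a knockout loop in neither, against 67.9%.

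Marker genes of the cell types that a whole uterus holds gave the setting. Under the same rule 57.5%, 45.3%, 50.0% and 65.1% of all genes had a loop. Endothelial markers had loops in 8, 3, 5 and 7 of 12 cases (66.7%, 25%, 41.7% and 58.3%), above the share of all genes in vehicle replicate 2 and below it in the other libraries. Pericyte markers had loops in 6, 4, 6 and 6 of 6, and stromal markers in 8 of 8 in each library. Smooth muscle markers numbered 4, 4, 5 and 4 of 6, epithelial markers 3, 5, 3 and 4 of 6, and immune markers 1, 2, 0 and 1 of 5. The order of the libraries for endothelial markers, lowest in vehicle replicate 3 and next after progesterone, is also that of list length except for the knockout. Tek and Tie1 stand in both the endothelial and the pathway list, and the part of cell makeup in the loop counts was not tested.

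Genes with the same 4 loop counts were looked for more than 2 Mb away from each member with loops in at least 3 lists. The counts of Calcrl (5, 2, 5 and 7) were shared by 1 other gene, Frem2. Those of Vegfa (3, 3, 2 and 4) were shared by 18 genes, of which Cblif, Nars and Carhsp1 were nearest to it in length, and those of Adm (3, 2, 3 and 3) by 74, with Ifitm1, Sox2 and Socs1 nearest. The counts of Ramp2 were shared by 17 genes, of Flt1 by 168, of Hif1a by 194 and of Ramp3 by 239. With small whole numbers in 4 libraries, equal counts are a description and carry no more.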

How the data were processed

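Hi-C libraries of whole uterus were prepared with the Arima Hi-C kit, as the labels' protocols state: 2 of wild-type vehicle, 1 of wild-type progesterone and 1 of ERα knockout vehicle uterus. For each, the authors deposited a list of loops with the start and end of both anchors in bases on mm10, made with Juicer 1.5.6, per the submitters' processing notes; anchors measure 5, 10 or 25 kb, and starts, deposited from 0, were written from 1. No source used here gives the loop caller, its thresholds or the depth.

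Genes were the 21631 protein-coding genes of RefSeq on GRCm38.p6; starts came from its promoter windows, which hold 7 of the 8 members. A loop matched one of another list when both anchors lay within 10 kb. Exact intervals are Clopper-Pearson. The 8 members, the pathway list and the marker lists were chosen with earlier results of these data known. Named were all members, the pathway genes with the most loops, the VEGF, adrenomedullin and HIF families, genes at the far anchor of loops in 2 or more lists, and genes with equal counts; Mrps18a, Ppm1a, Tfpi and Vps25 were named after their positions were seen. Matching and counting were tested on simulated data. Python 3.11.15, numpy 2.4.6, pandas 2.3.3, scipy 1.17.1 and matplotlib 3.10.9 were used.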

Additional observations from a re-analysis of the deposited data

How the results depend on the processing

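No paired analysis was possible because the vehicle and progesterone libraries share 1 replicate number and no result comes from a test. Of the alternatives for the main counts, 41 stayed within 1.5 times the main value, or within the spread between vehicle replicates for ratios, and 21 did not. The loops at the 8 genes with 0 kb or 25 kb added to the gene, or at the gene start alone, were of the first kind in each library. With 5 kb anchors alone the sums were 11, 6, 8 and 15 in vehicle replicates 2 and 3, progesterone and the knockout, and with 10 kb anchors alone 8, 4, 5 and 6, since fewer loops enter. Leaving out a vehicle replicate moved the progesterone to vehicle ratio of loops between 0.81 and 1.42 and the knockout ratio between 1.14 and 2; per 10000 loops the knockout ratio was 0.859.

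Contacts in all 4 lists numbered 5 when 0 kb was added to the anchors. With 0 kb added, progesterone loops in neither vehicle list numbered 2, vehicle loops not called in the knockout 2 and knockout loops in neither vehicle list 8; with 25 kb added, vehicle loops not called in the knockout numbered 0. When a vehicle replicate is left out, 1 list stands for both. Vehicle loops not called after progesterone then numbered 1 without vehicle replicate 2 and 6 without vehicle replicate 3. In the same order, progesterone loops not in the vehicle list numbered 6 and 2. Vehicle loops not called in the knockout numbered 1 and 3, and knockout loops not in the vehicle list 13 and 6, again in that order. Shares over all loops were not counted for these alternatives, so they give no result about the 8 genes. The 50 kb Vegfa loop and the 475 kb Adm loop kept their status with 0, 10 and 25 kb added. Unknown depth limits each statement that a loop was not called.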
